A study of Mus musculus with 11 samples.

Results

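Integrins and the adhesion molecules they bind were followed in BV2 cells through 9 genes out of 36529 counted. The 9 were Icam1, Vcam1, Itga4, Itga5, Itgal, Itgam, Itgav, Itgb1 and Itgb2. They were listed by name and not by a cut on measured values, but earlier results of these data were known when they were chosen. BV2 is a transformed line of mouse microglia, labelled as of strain C57BL/6. In one experiment 3 samples (ApoE4) were treated with nApoE4, the amino-terminal fragment of human apolipoprotein E4 that holds residues 1 to 151, and 3 untreated samples (ControlA) were their controls. In the other, 2 samples (ApoE3) were treated with the matching fragment nApoE3, which carries a cysteine where nApoE4 carries an arginine, and 3 untreated samples (ControlB) were their controls. Both fragments were given at 25 μg/ml for 5 h, and RNA was sequenced. The labels name a PBS vehicle, while the study's methods state that controls received conditioned media, so the vehicle of the controls is not settled here. Each fragment was tested in its own experiment with its own controls, so that fragment and experiment cannot be told apart in any difference between them. A single cell line in culture also limits both experiments as a model of microglia in the brain.

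Integrins are surface receptors made of an alpha and a beta subunit that hold a cell to its matrix or to other cells. On leukocytes and microglia the beta2 subunit (Itgb2, CD18) pairs with Itgal to form LFA-1 and with Itgam to form Mac-1, the complement receptor that is widely used as a microglial marker, and both bind the immunoglobulin-family ligand ICAM-1. The beta1 subunit (Itgb1) pairs with Itga4 to form VLA-4, the receptor of VCAM-1, with Itga5 to form the classical fibronectin receptor, and with Itgav, which also pairs with other beta subunits to bind vitronectin and latent TGF-beta. ICAM-1 and VCAM-1 are induced by inflammatory cytokines in many cell types.

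Promoter sequence is shown for the 4 members that carry the contrasts below, the strongly induced ligand Icam1, the subunits Itga5 and Itga4 that rose with it, and Itgam, the member that fell. Each line holds the 250 bases before the gene's start in RefSeq (GRCm38.p6), written 5′ to 3′ on the gene's strand, with the matches to the motifs searched on both strands in capitals. The windows are chr9:21015690-21015939 for Icam1, chr15:103366792-103367041 on the minus strand for Itga5, chr2:79255176-79255425 for Itga4 and chr7:128062390-128062639 for Itgam. None of them overlaps an exon of the annotation. In GENCODE no Icam1 transcript was found whose first bases lie wholly in its window or the short stretch searched after it. A start near the end of that stretch or beyond it would be missed. The distances given for Icam1 therefore hold for the RefSeq start alone.
Icam1: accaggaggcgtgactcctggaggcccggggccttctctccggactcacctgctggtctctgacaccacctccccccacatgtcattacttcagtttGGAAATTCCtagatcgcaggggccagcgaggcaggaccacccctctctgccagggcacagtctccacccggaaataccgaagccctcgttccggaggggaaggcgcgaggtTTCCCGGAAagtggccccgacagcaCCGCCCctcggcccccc
Itga5: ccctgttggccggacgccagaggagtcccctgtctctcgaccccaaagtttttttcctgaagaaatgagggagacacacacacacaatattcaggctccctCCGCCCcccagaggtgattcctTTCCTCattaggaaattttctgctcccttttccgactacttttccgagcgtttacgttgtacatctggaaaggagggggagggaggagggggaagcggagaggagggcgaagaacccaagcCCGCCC
Itga4: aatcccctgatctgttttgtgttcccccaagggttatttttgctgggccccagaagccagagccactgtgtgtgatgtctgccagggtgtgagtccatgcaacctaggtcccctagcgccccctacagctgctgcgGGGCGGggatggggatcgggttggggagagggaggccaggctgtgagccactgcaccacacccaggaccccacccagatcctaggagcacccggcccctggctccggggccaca
Itgam: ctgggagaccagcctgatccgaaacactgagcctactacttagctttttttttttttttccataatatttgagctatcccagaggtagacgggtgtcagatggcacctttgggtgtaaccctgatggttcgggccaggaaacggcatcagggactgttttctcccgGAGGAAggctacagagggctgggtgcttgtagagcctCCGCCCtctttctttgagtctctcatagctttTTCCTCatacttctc
In Icam1 the capitals are GGAAATTCC, 153 to 145 bases before the start, TTCCCGGAA, 42 to 34 bases before it, and the SP1 motif read on the other strand, CCGCCC, 17 to 12 bases before it. The first is a match to GGAANTTCC, a variant of the kB motif that was chosen after the sequence was seen and that 0.811% of 32817 promoter windows of the same length hold. The second is a match to the GAS motif TTCNNNGAA, present in 7.01% of the windows. Itga5 held GAGGAA, the core of the PU.1 motif, read on the other strand as TTCCTC and present in 23.3% of windows, and 2 matches to the SP1 motif GGGCGG, which 32.7% of windows hold. The Itgam window held 2 PU.1 matches and 1 SP1 match, and the Itga4 window 1 SP1 match. No match to the kB consensus (held by 7.25% of windows), to AP-1 TGANTCA (6.75%) or to TATAAA (12.4%) was found in these 4 windows, and a match or its absence describes letters only. Promoter entries matched 6 of the 9 members, these 4 with Itgav and Itgb1, and did not match Vcam1, Itgal and Itgb2.

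The libraries held 39732710 to 44162511 counts on genes in the nApoE4 experiment and 55809688 to 69768666 in the nApoE3 experiment. ControlA replicate 2 stood apart from its group, with a chi-square per degree of freedom between counts of 25.8 and 47.9 against the other two samples, which differed by 7.85. Without it, 8827 genes in place of 8145 were called with nApoE4 and 5250 in place of 4331 in the difference between the fragments, and no call of a member changed. Of 14 markers of microglia and macrophages, 10 to 11 had a group mean over 1 CPM (counts scaled to a library of fixed size, with TMM factors), while P2ry12, a marker of resting microglia, was at 0 in every sample. Their summed level was 3450 to 3812 CPM in ControlA, 4067 to 4152 in ApoE4, 2639 to 2753 in ControlB and 3585 to 3605 in ApoE3. It was thus higher in both treated groups than in their controls. Aif1 and Cx3cr1 also had means under 1 CPM in every group, as did Trem2 in ControlB and ApoE3. In ControlA, Trem2 ran from 1.33 to 60.5 CPM between samples. Because endothelial cells also carry Icam1 and Vcam1, their markers were summed, and 4 of 9 (Kdr, Flt1, Vwf and Egfl7) had a group mean over 1 CPM. Their sum was 256 to 303 CPM in ControlA, 160 to 173 in ApoE4, 195 to 197 in ControlB and 169 to 179 in ApoE3, lower in both treated groups mainly through Kdr, and Cldn5 was at 0 in every sample. Kdr had means of 166 CPM in ControlA, 65.6 in ApoE4, 63.6 in ControlB and 43.7 in ApoE3. Vwf and Egfl7 were also lower in both treated groups, while Flt1 was at 53.6, 52.5, 96.5 and 101 CPM in the same order of groups. The summed markers of oligodendrocytes stayed between 9.33 and 25.5 CPM with Mog and Mobp at 0, and those of astrocytes between 1.07 and 7.03 CPM, higher in both treated groups than in their controls mainly through Slc1a2 (mean 1.00 CPM in ControlA, 6.43 in ApoE4, 1.06 in ControlB and 4.37 in ApoE3). The sums were at most 1.35 CPM for neurons, 1.49 for neutrophils, 0.564 for lymphocytes and 0.390 for fibroblasts. These samples are of a single cell line, and a marker sum does not show that cells of another kind were present. The part of these marker sums in the results was not tested. In a bulk sample fewer cells of a kind and less RNA per cell cannot be told apart.

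Both fragments raised most of the 9 genes. With nApoE4, 7 members were higher than in ControlA, Itgam was lower and Itgb2 did not pass the test, with a median log2 fold change over the members of 1.67. With nApoE3, 8 members were higher than in ControlB and Itgam was lower, with a median of 0.87. Tests were edgeR's quasi-likelihood test with Benjamini-Hochberg adjustment over all genes tested, called at an adjusted p under 0.05. Of all genes tested, 28.6% were called higher and 28.6% lower with nApoE4, and 33.1% higher and 34.6% lower with nApoE3, with medians of 0.0013 and -0.0026 on the log2 scale. The ligands Vcam1 and Icam1 and the fibronectin receptor subunit Itga5 rose most with both fragments.

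**Figure D1:**
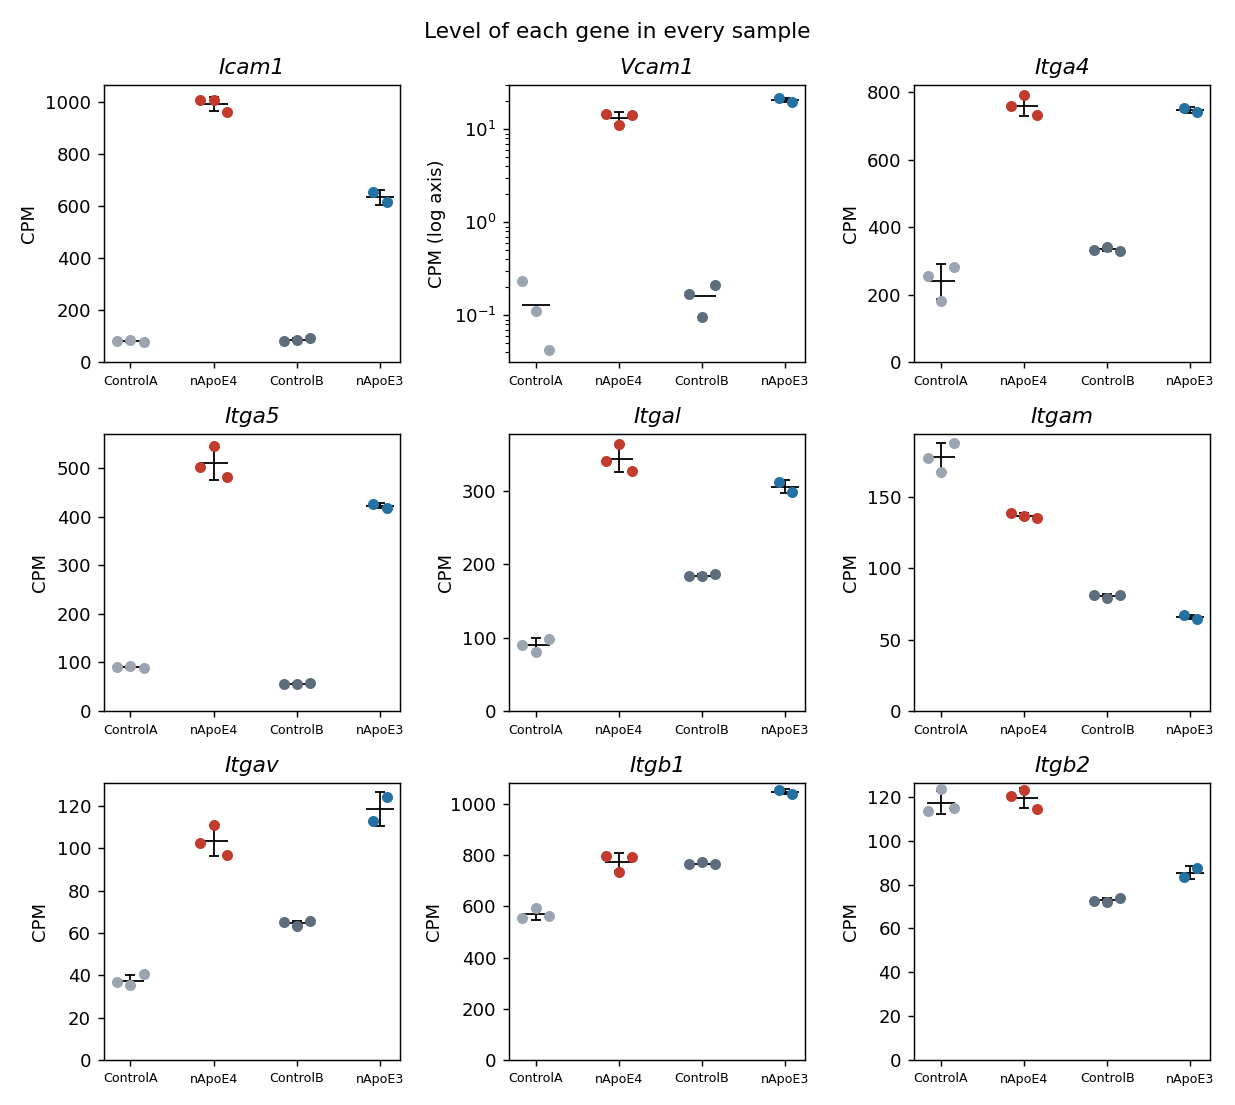
Level of each of the 9 genes in every sample, in CPM scaled by TMM, one panel per gene and one column per group (ControlA, ApoE4 shown as nApoE4, ControlB, ApoE3 shown as nApoE3), with points for samples and a bar for the group mean ± SD; Vcam1 is on a log axis and its control groups carry no SD. Treated samples lie above their controls for 7 genes in both experiments, below them for Itgam, and among them for Itgb2 in the nApoE4 experiment.

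Icam1, the ligand of LFA-1 and Mac-1, was at 81.2, 85.8 and 79.6 CPM in ControlA and at 1007, 1010 and 962 CPM in ApoE4. In the nApoE3 experiment it was at 82.0, 84.5 and 91.8 CPM in ControlB and at 655 and 614 CPM in ApoE3. The controls of both experiments overlapped, the treated samples did not overlap their controls, and every ApoE4 sample lay above both ApoE3 samples. The log2 fold change of Icam1 was 3.60 ± 0.070 (SE, adjusted p = 4.57e-10) with nApoE4, a 12.1-fold rise. With nApoE3 the log2 fold change was 2.88 ± 0.041 (SE, adjusted p = 3.74e-14), a 7.34-fold rise. Icam1 is the one member tested between the control groups that was not called there, with a log2 difference of 0.05 (95% CI -0.08 to 0.18, adjusted p = 0.450). The rise was larger with nApoE4 by 0.71 ± 0.080 on the log2 scale (SE, adjusted p = 2.80e-05 for the difference between the fragments).

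Vcam1, the ligand of VLA-4, was close to absent in untreated cells, with 10, 5 and 2 counts in ControlA and 12, 6 and 12 counts in ControlB. It reached 627, 460 and 565 counts in ApoE4 and 1261 and 1127 counts in ApoE3. In CPM these were group means of 13.3 ± 1.95 (SD, n = 3) and 20.8 ± 1.21 (SD, n = 2), far above every control but low beside the other members. Its log2 fold change was 6.68 ± 0.28 with nApoE4 (SE, adjusted p = 4.78e-08) and 7.01 ± 0.13 with nApoE3 (SE, adjusted p = 3.55e-13), and both rest on a few counts in the controls. Without ControlA replicate 1 the value with nApoE4 was 7.39, and without ControlA replicate 3 it was 6.25. Between the fragments the log2 difference was -0.33 (95% CI -1.54 to 0.89, adjusted p = 0.716), an interval wide enough to hold a difference of either sign. Its sign turned when 1 control library, ControlA replicate 1, was left out, to 0.39. Vcam1 did not pass the filter on low counts between the control groups and was not tested there.

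**Figure D2:**
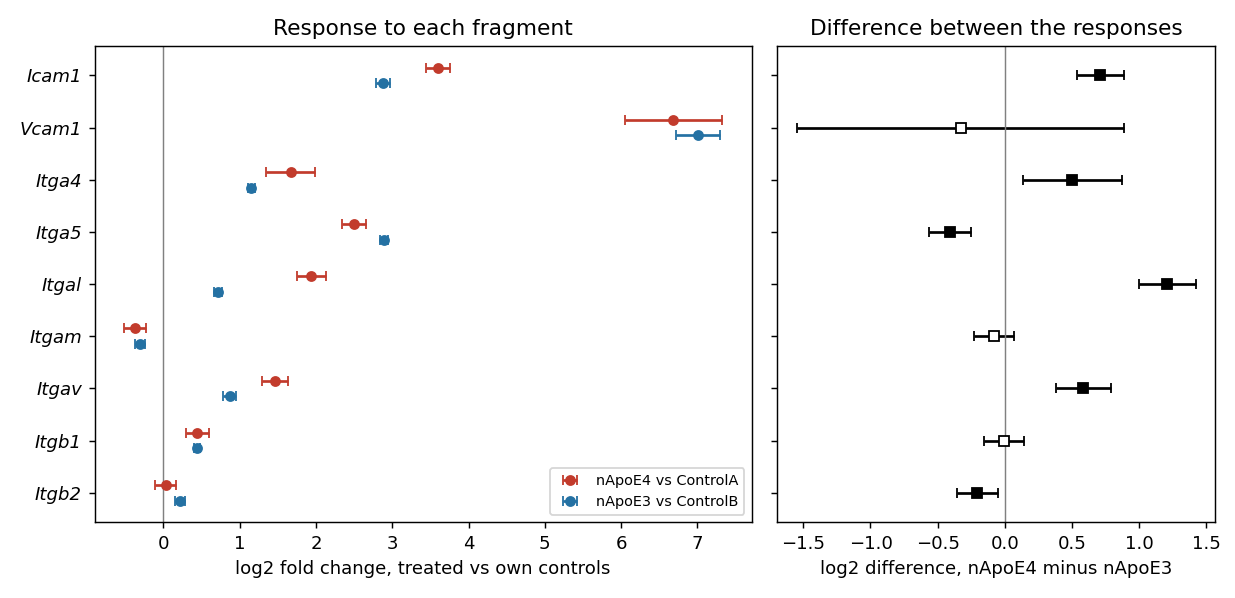
Log2 fold change of the 9 genes with each fragment against its own controls (left) and the difference between the fragments, nApoE4 minus nApoE3 (right), with bars for the 95% CI and, on the right, filled squares for an adjusted p under 0.05. Icam1, Itga4, Itgal and Itgav lie right of 0 in the difference, Itga5 and Itgb2 left of it, and the intervals of Vcam1, Itgam and Itgb1 cover 0.

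Itgal, the alpha subunit of LFA-1, rose from 90.3, 80.7 and 98.7 CPM in ControlA to 341, 364 and 328 CPM in ApoE4. In the nApoE3 experiment it rose from 184, 184 and 186 CPM in ControlB to 312 and 299 CPM in ApoE3. The treated levels of both experiments thus lay closer together than the control levels, which did not overlap. This gave log2 fold changes of 1.94 ± 0.085 with nApoE4 (SE, adjusted p = 6.26e-08) and 0.72 ± 0.024 with nApoE3 (SE, adjusted p = 6.51e-11). The difference between the fragments, 1.21 ± 0.098 (SE, adjusted p = 1.70e-06), was the largest among the members that passed. ControlB exceeded ControlA by 1.02 ± 0.071 on the log2 scale (SE, adjusted p = 6.79e-06).

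Itgam, the alpha subunit of Mac-1, moved the other way. It fell from 177, 168 and 188 CPM in ControlA to 138, 137 and 136 CPM in ApoE4, and from 81.5, 79.4 and 81.5 CPM in ControlB to 67.0 and 64.6 CPM in ApoE3. Treated and control samples did not overlap in either experiment, and all nApoE3 experiment samples lay below all those of the nApoE4 experiment. On the log2 scale Itgam changed by -0.37 ± 0.062 with nApoE4 (SE, adjusted p = 6.23e-04) and -0.30 ± 0.030 with nApoE3 (SE, adjusted p = 1.90e-06). Exons of Itgam overlap those of a second gene model on the same strand in GENCODE, Gm49368. That name is not among the genes counted here, and whether shared reads were lost to Itgam cannot be told. The difference between the fragments was -0.08 (95% CI -0.23 to 0.07, adjusted p = 0.438). The step between the control groups, -1.15 ± 0.052 (SE, adjusted p = 1.05e-06), was larger in size than the change with either fragment.

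Itga4, the alpha subunit of VLA-4, was at 255, 182 and 283 CPM in ControlA and 758, 791 and 732 CPM in ApoE4. It was at 331, 341 and 330 CPM in ControlB and 753 and 742 CPM in ApoE3. The treated samples of both experiments overlapped, whereas the ControlA samples were spread more widely and all lay below ControlB. The log2 fold change of Itga4 was 1.67 ± 0.14 with nApoE4 (SE, adjusted p = 6.41e-06) and 1.15 ± 0.021 with nApoE3 (SE, adjusted p = 2.81e-13). The difference between the fragments, 0.50 ± 0.17 (SE, adjusted p = 0.0429), passed narrowly. It did not pass when any one sample other than ControlA replicate 2 or ControlA replicate 3 was left out (adjusted p from 0.0512 to 0.127, log2 difference 0.49 to 0.55), and without ControlA replicate 2, the lowest sample, it was 0.34 (adjusted p = 9.34e-04). Exons of Itga4 overlap those of Cerkl on the other strand, which had 32 to 199 counts, and the strand setting of the counting is not given in the sources used here. Exons of Icam1, Vcam1 and Itgav also overlap genes on the other strand, which are not listed among the genes counted and were not analysed here.

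Itga5, the fibronectin receptor subunit, rose from 90.8, 91.8 and 89.1 CPM in ControlA to 502, 547 and 482 CPM in ApoE4. In the nApoE3 experiment it rose from 56.1, 56.7 and 56.8 CPM in ControlB to 427 and 419 CPM in ApoE3. The ApoE4 samples were the highest in level, but the controls of nApoE3 started lower. Itga5 had a log2 fold change of 2.50 ± 0.070 with nApoE4 (SE, adjusted p = 3.19e-09), a 5.65-fold rise, and 2.90 ± 0.023 with nApoE3 (SE, adjusted p = 4.51e-16), a 7.44-fold rise. The difference between the fragments was -0.41 ± 0.073 (SE, adjusted p = 9.88e-04), so that the rise was smaller with nApoE4. ControlB lay below ControlA by a log2 difference of -0.70 ± 0.040 (SE, adjusted p = 2.86e-06).

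Itgav, which helps bind vitronectin and latent TGF-beta, rose from 36.8, 35.2 and 40.4 CPM in ControlA to 102, 111 and 96.7 CPM in ApoE4. It rose from 65.0, 63.0 and 65.5 CPM in ControlB to 113 and 124 CPM in ApoE3. The groups of each experiment did not overlap, and the ApoE3 samples lay highest. For Itgav the log2 fold change was 1.47 ± 0.076 with nApoE4 (SE, adjusted p = 1.88e-07) and 0.87 ± 0.039 with nApoE3 (SE, adjusted p = 9.02e-10). The difference was 0.59 ± 0.095 (SE, adjusted p = 5.29e-04), beside a difference of 0.77 ± 0.058 between ControlB and ControlA (SE, adjusted p = 1.01e-05).

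Itgb1, the common partner of Itga4, Itga5 and Itgav, was at 553, 594 and 561 CPM in ControlA and 795, 734 and 793 CPM in ApoE4. It was at 764, 772 and 766 CPM in ControlB and 1055 and 1041 CPM in ApoE3. Each treated group lay above its controls, while ControlB overlapped ApoE4 in level. The log2 fold change of Itgb1 was 0.45 ± 0.067 with nApoE4 (SE, adjusted p = 3.04e-04) and 0.44 ± 0.018 with nApoE3 (SE, adjusted p = 3.18e-10). Their difference was -0.0069 (95% CI -0.16 to 0.14, adjusted p = 0.957).

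Itgb2, the partner of Itgal and Itgam, was at 114, 123 and 115 CPM in ControlA and 120.5, 123 and 115 CPM in ApoE4, and these samples overlapped. It was at 72.6, 72.1 and 73.9 CPM in ControlB and 83.4 and 87.4 CPM in ApoE3, which did not overlap. For Itgb2 the log2 fold change was 0.03 with nApoE4 (95% CI -0.10 to 0.17, adjusted p = 0.683) and 0.22 ± 0.031 with nApoE3 (SE, adjusted p = 3.81e-05). The difference of -0.20 ± 0.070 (SE, adjusted p = 0.0454) passed narrowly and did not pass when any one sample outside ControlA was left out (adjusted p from 0.0520 to 0.196). It also missed the threshold when all genes with at least 1 count were tested (adjusted p = 0.206).

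Across the members the difference between the fragments was higher with nApoE4 for 4 genes (Icam1, Itga4, Itgal and Itgav), lower for 2 (Itga5 and Itgb2) and not called for 3. Of all genes tested, 14.4% were called higher and 13.9% lower in that test. Between the untreated groups, 4 of the 8 members tested were higher in ControlB (Itga4, Itgal, Itgav and Itgb1), 3 were lower (Itga5, Itgam and Itgb2) and Icam1 was not called, where 34.4% of all genes tested were higher and 34.9% lower. The test of the fragments and that of the controls share the control samples, and the experiments cannot be told apart from the fragments in either.

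Levels were set beside each other per kilobase of exons, since longer genes collect more reads. In ControlA, Itgb1 led with 140 ± 5.40 CPM per kilobase (SD, n = 3), followed by Itgb2 at 38.5 and Itgam at 35.4, whose ranges overlapped. Icam1, Itga5, Itga4 and Itgal came next at 18.9, 18.4, 17.2 and 13.7 CPM per kilobase, each overlapping its neighbour, with Itgav at 3.49 and Vcam1 at 0.015. In ApoE4, Icam1 took the first place with 228 ± 6.12 CPM per kilobase (SD, n = 3) before Itgb1 at 190, Itga5 at 103, and Itga4 and Itgal at 54.4 and 52.4, which overlapped, while Itgb2 at 39.2, Itgam at 27.3, Itgav at 9.62 and Vcam1 at 1.50 followed. In ControlB the order after Itgb1 at 188 began with Itgal at 28.1 CPM per kilobase, then Itga4 and Itgb2 at 23.9 each with overlapping ranges, and Icam1 at 19.8, Itgam at 16.1, Itga5 at 11.5, Itgav at 6.01 and Vcam1 at 0.018. In ApoE3, Itgb1 stayed first at 257 CPM per kilobase, Icam1 was second at 146 and Itga5 came next at 85.7, before Itga4 at 53.5, Itgal at 46.5, Itgb2 at 28.0, Itgam at 13.1, Itgav at 11.04 and Vcam1 at 2.35, with no overlap between neighbours over these 2 samples. Vcam1 was the lowest member in all 4 groups. With the length of the longest transcript in place of all exons, an alternative chosen after seeing the data, the level of Icam1 in ApoE4 was 392 CPM per kilobase and that of Itgb1 203, and the order changed for Itga4 and Itga5 in ControlA, Icam1 and Itgb2 in ControlB, and Itgav and Itgam in ApoE3.

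**Figure D3:**
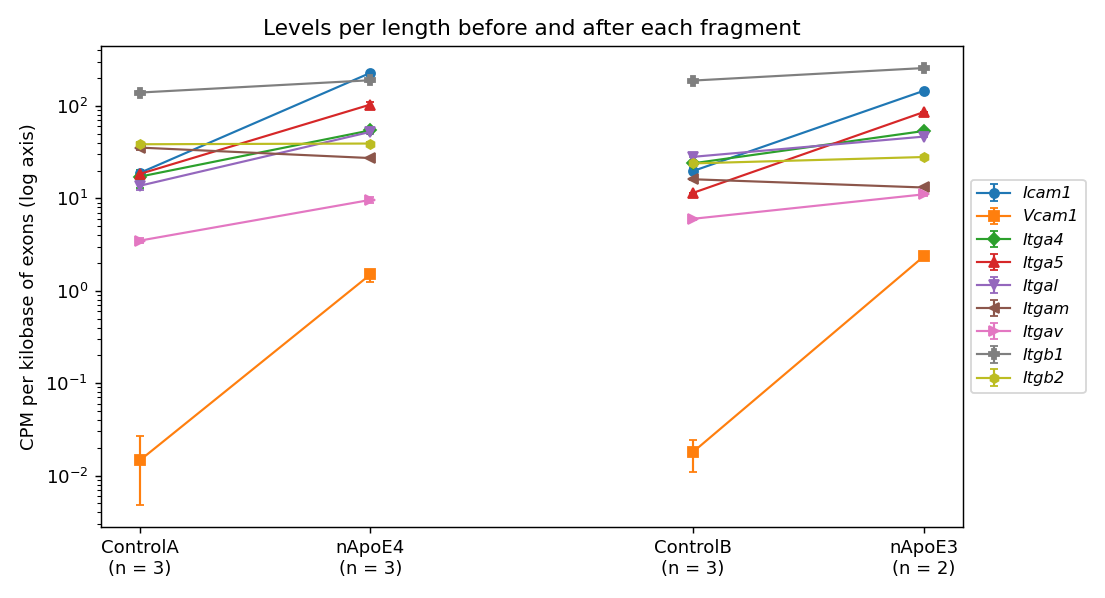
Level of each gene in CPM per kilobase of exons, on a log axis, in the 4 groups, with points for group means and bars for the range over samples. Icam1 moves from about the middle of the controls to the first place in ApoE4 and the second in ApoE3, and Vcam1 is lowest throughout.

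The balance of subunits within a sample was described by ratios of levels per kilobase, which were chosen after the values were seen and carry no test. The ratio of Itgal to Itgam, the alpha subunits that share Itgb2, was 0.386 ± 0.017 in ControlA (SD, n = 3) and 1.92 ± 0.098 in ApoE4 (SD, n = 3). In the nApoE3 experiment the ratio was 1.75 ± 0.024 in ControlB (SD, n = 3) and 3.55 ± 0.017 in ApoE3 (SD, n = 2). The ratio rose with treatment in every sample against every control of the same experiment, but ControlB started near the level that ApoE4 reached. The summed level of Itga4, Itga5 and Itgav relative to Itgb1 was 0.281 ± 0.036 in ControlA and 0.885 ± 0.091 in ApoE4 (SD, n = 3 each), and 0.220 ± 0.00080 in ControlB (SD, n = 3) and 0.585 ± 0.0020 in ApoE3 (SD, n = 2). This sum leaves out alpha subunits that are not members, among them Itga6, which fell with both fragments. Library size and scaling cancel in these ratios.

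The genes nearest to each member were found as those with the smallest mean absolute difference in centred log2 CPM over the 11 samples, among 15287 genes. Nearest to Icam1 were Irf1, which encodes an interferon regulatory factor, Zc3h12c and Gm30073, at 0.130, 0.136 and 0.141 log2 units. Irf1 itself was at 25.5 ± 1.24 CPM in ControlA, 332 ± 10.3 in ApoE4 (SD, n = 3 each), 31.4 ± 2.35 in ControlB (SD, n = 3) and 171 ± 9.16 in ApoE3 (SD, n = 2). Its order of groups is like that of Icam1 because it was chosen for nearness over these same samples, and this is no separate result. Vcam1 had no gene as near, the first being the acute phase gene Saa3 at 0.442, then Zfp811 at 0.454 and Ccrl2 at 0.476. Itga4 was nearest to the semaphorin coreceptor gene Nrp2 at 0.074, with Rapgef2 and Apobec3 after it, and Itga5 to Fam49a at 0.102, with Mfap3l also among its nearest. Itgal was nearest to Stard5, Dse and LOC108167341 at 0.119 to 0.134, and Itgav to Cldnd1, Hif1a and Dse at 0.076 to 0.085. Itgam was nearest to Nek8 at 0.054, then Jak3 and Tk2. Itgb1 and Itgb2 had the smallest distances, 0.032 to Rnf115 for Itgb1, with Wtap and Tra2a next, and 0.034 to Ltbr for Itgb2, with Sirt2 and Cnppd1 next. The distances are not scaled to the size of a gene's changes. Members that change little therefore lie nearer to other genes, and distances do not rank the members by closeness of pattern.

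Other integrin subunits were called in both directions, at shares to be read against 28.6% of all genes tested called each way with nApoE4 and 33.1% higher and 34.6% lower with nApoE3. Each gene said to rise or fall in these lists was called in the comparison given. Of 17 other integrin subunits tested with nApoE4, 5 rose and 5 fell, with a median log2 fold change of 0.12, and with nApoE3, 7 rose and 3 fell, with a median of -0.06. Itga6, a laminin receptor subunit, fell from 126 ± 7.80 CPM in ControlA to 57.1 ± 1.50 in ApoE4 (SD, n = 3 each, log2 fold change -1.14, adjusted p = 3.38e-07). It fell from 146 ± 4.47 CPM in ControlB (SD, n = 3) to 47.4 ± 0.052 in ApoE3 (SD, n = 2, log2 fold change -1.63, adjusted p = 5.83e-13). Itgb4, its partner in epithelia, fell with nApoE4 (log2 fold change -0.63, adjusted p = 0.0145) and was at -0.27 with nApoE3 (adjusted p = 0.197). Itgb5, a partner of Itgav, fell with both fragments (-0.24 and -0.89, adjusted p = 0.00658 and 4.93e-11). Itga8 rose with both fragments, by a log2 fold change of 1.99 with nApoE4 and 1.72 with nApoE3, from levels under 1 CPM. Itgad, a leukocyte alpha subunit of the beta2 family, rose with nApoE4 (2.58, adjusted p = 6.64e-05) and was at -0.42 with nApoE3 (adjusted p = 0.324). The collagen receptor subunit Itga1 rose with nApoE3 (0.84, adjusted p = 0.00237) and was at -0.50 with nApoE4 (adjusted p = 0.120), and both genes had low levels.

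Adhesion molecules other than integrins were likewise divided, with 8 higher and 8 lower of 22 with nApoE4 and 7 higher and 6 lower of 22 with nApoE3, and medians of 0.07 and 0.20. Cd44, the hyaluronan receptor, rose from 218 ± 4.98 to 1060 ± 17.4 CPM with nApoE4 (SD, n = 3 each, log2 fold change 2.28, adjusted p = 3.19e-09). With nApoE3, Cd44 rose from 175 ± 2.64 (SD, n = 3) to 578 ± 1.32 CPM (SD, n = 2, log2 fold change 1.72, adjusted p = 1.36e-14). Sele, the E-selectin gene that endothelial cells induce beside Icam1 and Vcam1, had 0 to 2 counts in ControlA and 180 to 223 in ApoE4, at least 72.4-fold higher against a floor of 3 counts per library. In the nApoE3 experiment Sele had 0 to 1 counts in ControlB and 3 to 8 in ApoE3, too few to be tested. Nectin1 fell with both fragments, with log2 fold changes of -1.73 and -1.94. Alcam rose by 1.29 with nApoE4 and 1.30 with nApoE3, and Cd200r1, an inhibitory receptor, fell with both (-1.50 and -1.12). Cd93 fell with nApoE3 (-1.46) and had a log2 fold change of -0.43 with nApoE4 (adjusted p = 0.108).

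Among adaptors and kinases that act on integrin tails and focal adhesions, 15 rose and 10 fell of 41 tested with nApoE4, and 19 rose and 13 fell of 40 with nApoE3, with medians of 0.04 and 0.06. Src, a kinase of focal adhesions, rose from 25.0 ± 1.15 to 190 ± 12.5 CPM with nApoE4 (SD, n = 3 each, log2 fold change 2.93). With nApoE3, Src rose from 7.96 ± 0.403 (SD, n = 3) to 86.8 ± 5.22 CPM (SD, n = 2, log2 fold change 3.44). The kinase gene Syk rose with both (1.74 and 1.59), as did Rap1b, a small GTPase that activates integrins (1.46 and 1.05), and Kank1 (1.17 and 1.49). For Kank1 the ApoE3 samples lay far apart, at 20 and 65 counts against 15 to 18 in ControlB, so that its rise with nApoE3 rests mostly on 1 of 2 samples. Cytip, which encodes a partner of cytohesin-1 that restrains LFA-1 adhesion, fell from 198 ± 9.94 to 7.05 ± 0.904 CPM with nApoE4 (SD, n = 3 each), which is -4.80 on the log2 scale (adjusted p = 6.18e-10). With nApoE3, Cytip fell from 48.1 ± 0.828 (SD, n = 3) to 5.71 ± 0.245 CPM (SD, n = 2), which is -3.08 on the log2 scale (adjusted p = 8.98e-14). Cyth1, the cytohesin-1 gene, had means of 40.8 CPM in ControlA, 26.8 in ApoE4, 50.2 in ControlB and 18.9 in ApoE3. Fermt3, another adaptor of the list, was at 361, 225, 237 and 161 CPM in the same order. Genes were named by the size of their change, and integrin activity was not tested.

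Matrix and secreted ligands of integrins gave 6 higher and 6 lower of 19 with nApoE4 and 7 higher and 7 lower of 19 with nApoE3, and medians of 0.22 and 0.05. Col4a2, a chain of basement membrane collagen, rose from 0.376 to 2.22 CPM with nApoE4 (log2 fold change 2.56) and from 0.302 to 7.70 CPM with nApoE3 (4.68). The sheddase gene Adam17 rose with both fragments (1.32 and 1.22), and Emilin1 (-1.15 and -1.37) and Tgfbi (-1.30 and -1.07) fell with both.

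Cytokines, signalling genes and inhibitors known to act upstream of Icam1 and Vcam1 gave 14 higher and 5 lower of 22 with nApoE4 (median 1.56) and 17 higher and 3 lower of 22 with nApoE3 (median 1.60). Il1b rose from 1.03 ± 0.070 to 223 ± 17.3 CPM with nApoE4 (SD, n = 3 each, log2 fold change 7.76). With nApoE3, Il1b rose from 1.99 ± 0.54 (SD, n = 3) to 360 ± 21.7 CPM (SD, n = 2, log2 fold change 7.50). Tnfaip3, an inhibitor of NF-kB signalling, rose with both (3.71 and 4.07), as did Il1a (4.31 and 5.39). Other genes of this list lay lower in treated samples. Fos had means of 28.4 CPM in ControlA, 5.63 in ApoE4, 13.2 in ControlB and 5.41 in ApoE3. In the same order Klf4 was at 8.27, 4.68, 7.14 and 2.65 CPM, and Jun at 58.0, 31.2, 69.5 and 114 CPM, higher in ApoE3 than in ControlB. Tnf had 1 to 3 counts in ControlA against 52 to 64 in ApoE4, at least 20.3-fold higher against the floor of 3 counts per library, and 1 to 2 counts in ControlB against 106 to 116 in ApoE3, at least 40.3-fold higher. Genes at 3 counts or fewer in every control lay above their list's median both as fitted and at their bound, so that the medians do not depend on them.

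**Figure D4:**
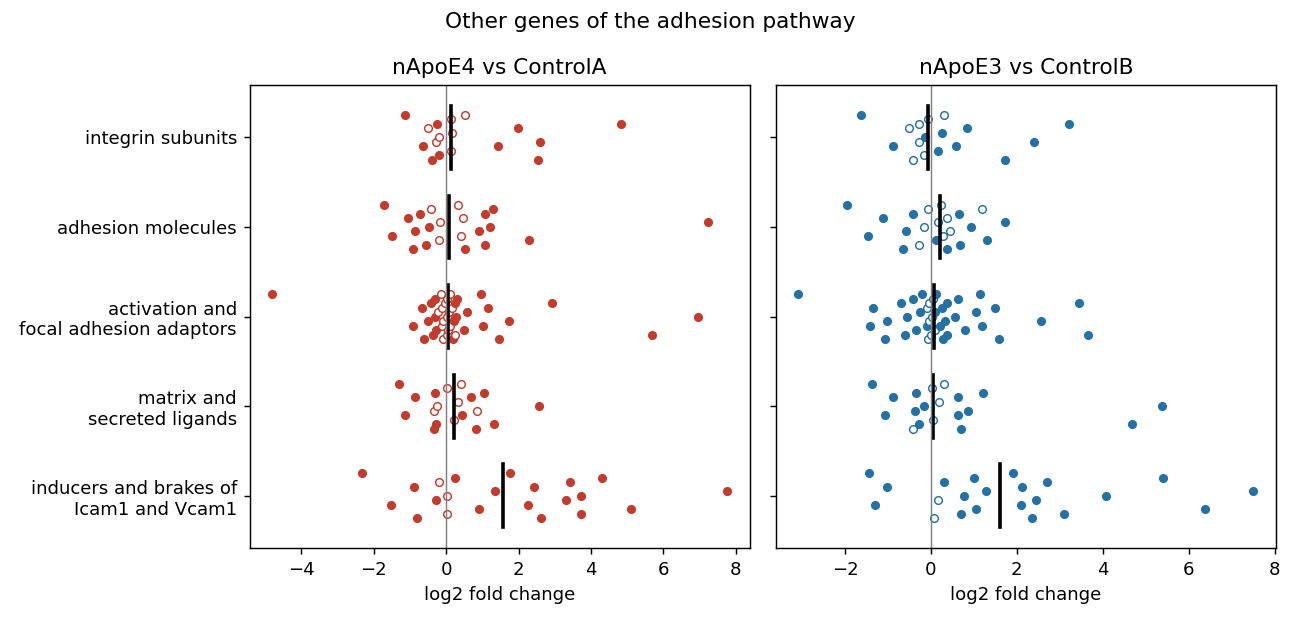
Log2 fold change of the other genes of the 5 lists with each fragment, one point per gene, filled where the adjusted p was under 0.05, with a black bar for the median of the list. Integrin subunits, other adhesion molecules, adaptors and ligands spread to both sides of 0, with medians from -0.06 to 0.22, and the inducers lie mostly above 0.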

How the data were processed

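RNA of 11 samples was sequenced. Per the study's methods and the submitters' processing notes, the authors trimmed reads with Trim Galore 0.5.0, checked them with FastQC 0.11.8, mapped them to GRCm38.p6 with HISAT2 2.1.0 and counted them per gene with HTSeq 0.11.0. The deposited values are raw counts of reads per gene, not normalized; annotation release, strand setting and overlap mode are not given in the sources used here. Tally lines that name no gene were left out.

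Counts were tested in R 4.3.3 with edgeR 4.0.16 (filterByExpr, TMM, quasi-likelihood F test, Benjamini-Hochberg adjustment over all genes tested, call at an adjusted p under 0.05) for each fragment against its own controls, for the difference between the fragments as an interaction over the 11 samples, and between the control groups. The study used DESeq2, which served here as an alternative (1.42.0), beside other size factors, other filters on low counts, 1 fit over the 11 samples, a replicate block and leaving out each sample in turn. The code was tested on simulated data. Standard errors are approximate, set so that the squared quotient of log2 fold change and error is F. CPM values use TMM-scaled library sizes, and intervals are at 95%. The floor of 3 counts was 0.0425 to 0.0756 CPM in a library, and floors cover counting error only. Positions and promoters come from RefSeq, and lengths and overlaps from the GENCODE annotation of GRCm38.p6.

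The 9 members were named by symbol. From each of 5 lists of related genes, the 4 called genes of largest absolute log2 fold change were named if some group averaged 1 CPM or more, and the 3 nearest genes of each member, of which 1 is not reported here. Members, lists and tests were chosen with earlier results of these data known. Samples were grouped by their labels. The study's text speaks of independent trials, but the labels do not tie these samples to separate cultures, and where they share one, p-values measure only the spread between these samples, which may be technical. No samples of a group agreed within sampling noise.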

Additional observations from a re-analysis of the deposited data

Results flagged for a closer look

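In 6 of the 9 members the change with nApoE4 differed from that with nApoE3 by the test of the difference itself (edgeR's quasi-likelihood test over the 11 samples), given here as log2 differences, nApoE4 minus nApoE3, where 14.4% of all genes tested were called higher and 13.9% lower. Icam1 differed by 0.71, with overlapping control levels in both experiments. Itgal differed by 1.21, Itgav by 0.59 and Itga4 by 0.50, each with a lower level in ControlA than in ControlB. Itga5 differed by -0.41 and Itgb2 by -0.20, each with a higher level in ControlA than in ControlB. The differences of Itga4 and Itgb2 each lost the call in 10 of 16 alternatives. The controls enter these differences, and fragment and experiment cannot be told apart in them. With at most 3 samples, no group was searched for a single sample's value far from the others.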

How the results depend on the processing

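The fold changes of the 9 members with each fragment and between the control groups kept their direction and their side of the threshold under every alternative in which they were tested. Over all comparisons, 419 of the members' values under alternatives did so, 20 lost the call and 5 changed sign. The 20 lost calls were those of the differences of Itga4 and Itgb2 between the fragments. With all genes of at least 1 count tested, 1 member in place of 2 was called lower in that difference, and that of Itgb1 was 0.029. Leaving out 1 sample at a time gave 1 to 2 members called lower, log2 differences of -0.028 to 0.044 for Itgb1 and -0.76 to 0.39 for Vcam1, and causes were not tested. Of the other integrin subunits, 1 in place of 5 was called higher with nApoE4 and 4 in place of 7 with nApoE3 where at least 10 counts in each sample were required, since fewer genes were tested. Vcam1 could not be tested where 10 counts were required of a gene in each sample.

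Replicate numbers gave no sign of pairing the samples, although so few pairs cannot settle it. Residuals of same-numbered samples correlated at -0.172 to -0.039 between ControlA and ApoE4 (3 pairs, 15287 genes) and at -0.013 to -0.0079 between ControlB and ApoE3 (2 pairs). With replicate number as a block, 2307 genes were called in the difference between the fragments in place of 4331, with 3 members called higher and 1 lower, the Itga4 difference at 0.53 (adjusted p = 0.119) and the Itgb2 difference at -0.21 (adjusted p = 0.150). The block changed no other call of a member. Depth limits Vcam1 alone, which had 2 to 12 counts in untreated samples.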
